A study of Mus musculus with 78 samples.

Results

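Nascent transcription after 24 h of ZFP143 depletion was compared directly with nascent transcription after 6 h, so that the contrast holds what changed between both times and leaves out what had changed by 6 h and then stayed level. The comparison used every gene that had over 10 counts in 2 or more of the 4 libraries at these times, which were 18130 of the 55401 genes in the table. The 6 h and 24 h libraries are 4 of 8 transient transcriptome sequencing (TT-seq) libraries in a series of 78 samples, with 2 replicates a group. All cells were E14TG2a mouse embryonic stem cells (mESCs) kept without serum in LIF with MEK and GSK3 inhibitors, and in all of them, controls included, both copies of Zfp143 carried an FKBP degron with an HA tag and GFP. The 6 h and 24 h groups had received 500 nM dTAG-V1, a small molecule that sends the tagged protein to degradation, for 6 h and 24 h, the 2 h group for 2 h, and the DMSO group the solvent. The cells came from clones with the tag on both copies and a response to dTAG-V1. The labels do not say which clone gave which library, and they give no time for the DMSO group. Time in culture since treatment and time of depletion therefore cannot be told apart in this contrast. RNA made during a 10 min pulse of 2 mM 4-thiouridine was captured and sequenced, so counts follow current transcription more than stored RNA.

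ZFP143 (ZNF143 in humans) is a zinc finger activator that binds near transcription start sites, with many targets that encode mitochondrial proteins. Loss of a transcription factor is first seen at the genes it binds, and genes that respond to the changed state of the cell follow later. Responses of that kind that are well known in mammalian cells include the unfolded protein response of the endoplasmic reticulum (ER), the integrated stress response, sterol-controlled genes and the transcripts of mitochondrial DNA (mtDNA).

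Total counts were between 9721568 and 16532077 in the 8 TT-seq libraries, and the biological coefficient of variation between replicates, taken over all genes, was 17.2%. Over the 500 most variable genes, DMSO replicate 2 and 24 h replicate 2 stood apart from the other 6 libraries on the second component, at −16.1 and −26.6 against −0.89 to 11.8. The mesoderm gene Cdx1 moved with this: the summed level of the 4 tested genes of 14 on the mesoderm list was 56.5 and 53.02 CPM (counts of the gene scaled to the library's total, per 1e+06, with TMM factors) in those libraries against 12.4 to 14.5 in the others, with Cdx1 at 45.8 and 40.2 against 2.16 to 4.47, and the other 3 genes summed to 10.7 and 12.8 against 7.90 to 11.9. Defining markers of mESCs were present, with 12 of 12 general pluripotency genes tested and a summed level of 1671 to 1874 CPM in the 8 libraries. The listed genes of 2-cell-like cells gave 0 tested genes of 17, and the fibroblast list 1 of 10. Zfp143 itself stood at 71.6 and 74.8 CPM in DMSO, 164 and 164 at 2 h, 162 and 162 at 6 h, against 169 and 161 at 24 h. Its transcription lay above the DMSO level in all depleted libraries and was level between 6 h and 24 h (log2 change 0.03 ± 0.10, SE), which says nothing of the protein, since the degron acts on the protein.

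Promoter stretches are shown for the groups of genes on which the results turn: ER chaperone genes that went down between 6 h and 24 h, and genes bound by ZFP143 that had fallen at 2 h and went down again. Each sequence is the 250 bases before the transcription start on the gene's strand, from RefSeq on GRCm38.p6. Capitals in the first 4 mark the ER stress response element, here CCAAT, any 9 bases and CCACG, and in the last 3 the letters ACTACA, which stand in the known ZFP143 motif; both were searched on both strands, and a match on the other strand is printed as its reverse complement.
Hspa5 (chr2:34771840-34772089, + strand): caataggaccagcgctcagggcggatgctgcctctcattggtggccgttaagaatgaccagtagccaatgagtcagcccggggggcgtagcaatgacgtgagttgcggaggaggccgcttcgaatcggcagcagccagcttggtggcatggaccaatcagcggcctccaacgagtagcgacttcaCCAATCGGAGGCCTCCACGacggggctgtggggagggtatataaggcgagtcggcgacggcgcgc
Pdia6 (chr12:17266339-17266588, + strand): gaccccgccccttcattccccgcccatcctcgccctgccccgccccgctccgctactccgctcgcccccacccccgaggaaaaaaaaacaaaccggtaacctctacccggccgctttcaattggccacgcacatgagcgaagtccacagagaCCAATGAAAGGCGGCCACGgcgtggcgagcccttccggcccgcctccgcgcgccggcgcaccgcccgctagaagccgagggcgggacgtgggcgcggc
Hsp90b1 (chr10:86705445-86705694, − strand): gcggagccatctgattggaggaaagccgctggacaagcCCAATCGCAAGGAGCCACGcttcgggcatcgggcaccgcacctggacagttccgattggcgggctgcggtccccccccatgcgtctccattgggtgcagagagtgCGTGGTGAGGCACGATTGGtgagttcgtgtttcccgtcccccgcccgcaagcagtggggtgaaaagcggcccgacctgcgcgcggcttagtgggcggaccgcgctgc
Calr (chr8:84846932-84847181, − strand): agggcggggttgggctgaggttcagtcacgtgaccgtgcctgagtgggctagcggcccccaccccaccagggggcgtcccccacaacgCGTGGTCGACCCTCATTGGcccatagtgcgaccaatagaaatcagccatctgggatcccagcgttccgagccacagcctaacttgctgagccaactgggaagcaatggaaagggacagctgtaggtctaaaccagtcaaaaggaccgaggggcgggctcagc
Mpi (chr9:57552753-57553002, − strand): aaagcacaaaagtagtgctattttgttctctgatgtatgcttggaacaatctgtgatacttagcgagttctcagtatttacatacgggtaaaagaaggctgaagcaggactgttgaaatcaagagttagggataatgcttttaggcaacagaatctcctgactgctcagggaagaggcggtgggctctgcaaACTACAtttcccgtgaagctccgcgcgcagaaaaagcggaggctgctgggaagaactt
Uqcr10 (chr11:4704345-4704594, − strand): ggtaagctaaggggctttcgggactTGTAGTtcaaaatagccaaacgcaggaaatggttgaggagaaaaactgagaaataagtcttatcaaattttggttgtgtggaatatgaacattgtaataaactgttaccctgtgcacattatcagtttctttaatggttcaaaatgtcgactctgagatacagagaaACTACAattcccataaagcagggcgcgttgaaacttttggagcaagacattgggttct
Pdia5 (chr16:35490874-35491123, − strand): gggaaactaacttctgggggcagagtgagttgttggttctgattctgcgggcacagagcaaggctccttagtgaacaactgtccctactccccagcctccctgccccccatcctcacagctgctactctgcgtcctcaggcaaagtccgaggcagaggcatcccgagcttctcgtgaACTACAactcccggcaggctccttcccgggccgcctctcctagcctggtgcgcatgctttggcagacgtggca

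Nascent transcription of most genes did not pass a test between 6 h and 24 h, and the named genes below rest on DESeq2. With edgeR's quasi-likelihood test and an absolute log2 change above 0.5, 0 genes were called higher and 0 lower at an adjusted p under 0.05 (0% of 18130 each way), and the lowest adjusted p was 0.067. With no filter on low counts edgeR called 745 genes (494 higher and 251 lower), of which 708 pass the filter. At an unadjusted p under 0.05 in edgeR, 1075 genes were higher (5.93%) and 923 lower (5.09%). DESeq2, which the study used for TT-seq, called 60 genes higher (0.366% of the 16372 genes with an adjusted p) and 91 lower (0.556%) at the same thresholds, and all 151 had an unadjusted p under 0.05 in edgeR. The labels give no pairing of replicates, but edgeR did call genes with a replicate block, as the closing section gives. Of the 60 and the 91 it then called 44 and 80 in the same direction. "Rose" and "fell" below mean called by DESeq2, while fold changes are log2 values from edgeR with their SE. The median change of all tested genes was 0.02, and by position alone both 24 h libraries lay above both 6 h libraries in 3925 genes (21.6%) and below them in 3843 (21.2%).

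**Figure D1:**
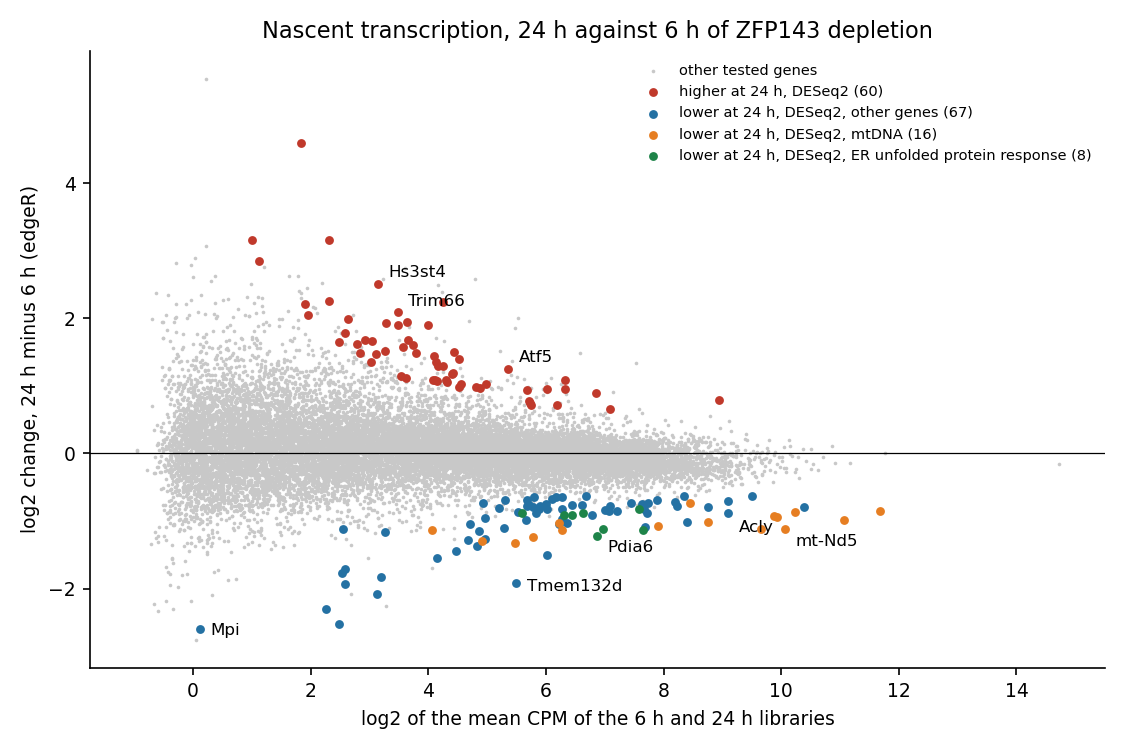
Log2 change in nascent transcription, 24 h minus 6 h (edgeR, y axis), against the log2 mean CPM of the 6 h and 24 h libraries (x axis), with 1 point for each of 18130 genes. The 60 genes called higher by DESeq2 (red) had a median mean count of 205, and the 91 called lower (blue, orange for 16 mtDNA genes, green for 8 ER genes) one of 951.5.

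Single libraries decided many of these calls. Without 6 h replicate 1, 6 h replicate 2, 24 h replicate 1 or 24 h replicate 2 in turn, DESeq2 called 28, 4, 78 and 7 genes higher and 45, 25, 100 and 39 lower. Each of these fits leaves 1 library at 6 h or 24 h, which is assumed to vary like the other groups. Of the 60 that rose, 17, 4, 33 and 4 were still called, and 1 (Trim66) was called in all of these fits. Of the 91 that fell, 43, 25, 60 and 35 were still called, and 20 in all of them: 12 mtDNA genes, Tmem132d, Dpysl5, Pdia6, Manf, St3gal2, Gss, Acly and Snd1. Among the 60, 24 h replicate 2 lay above 24 h replicate 1 in 45 genes (75%, against 49.1% of all tested genes), and DMSO replicate 2 above DMSO replicate 1 in 42 (70%, against 48.8%). The part of the libraries that stood apart in the increases was not tested.

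Transcripts of mtDNA made up the largest group that went down. This small circular genome is transcribed inside mitochondria from both strands into long precursors, which are cut into 2 rRNAs, tRNAs and mRNAs of the respiratory chain. All 26 tested mtDNA genes had a log2 change below 0, 25 did not overlap between 6 h and 24 h, and 16 fell with DESeq2. Their median change was −0.94, beside 0.02 for all tested genes. Their summed level was 14896 and 12876 CPM in DMSO, 13248 and 14063 at 2 h, 15902 and 15394 at 6 h, against 8072 and 8202 at 24 h. Both 24 h libraries lay below all 6 others. The sum is made mostly of rRNAs and mRNAs, and tRNAs took another course: the 17 tested tRNAs had a median of 0.75 for 6 h against DMSO and −0.18 for 24 h against DMSO, with 7 above DMSO at 24 h, while the 9 rRNAs and mRNAs had medians of 0.11 and −0.76, with 0 above. As bulk values, they cannot tell fewer cells of a kind from less RNA made per cell.

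Within complex I, mt-Nd5, a subunit of its membrane arm, was measured at 1432 and 1440 CPM in DMSO, 1203 and 1441 at 2 h, 1414 and 1525 at 6 h, against 633 and 721 at 24 h (log2 change −1.12 ± 0.14, DESeq2 adjusted p = 2.37e-08). Other complex I subunits fell as well, namely mt-Nd4 (−1.02 ± 0.15), mt-Nd2 (−0.94 ± 0.16), mt-Nd1 (−0.87 ± 0.14) and mt-Nd6 (−0.73 ± 0.14), the last of which lies on the other strand. For mt-Cytb, the cytochrome b of complex III, the values were 1066 and 1067 CPM in DMSO, 904 and 1080 at 2 h, 1060 and 1155 at 6 h, against 471 and 554 at 24 h (−1.11 ± 0.14), and for mt-Co1, the catalytic subunit of complex IV, the change was −0.92 ± 0.13. In each of these genes both 24 h libraries lay below all 6 earlier ones. Both rRNAs, which are transcribed nearest the start of the precursor, fell too, mt-Rnr1 by −0.99 ± 0.14 and mt-Rnr2 by −0.85 ± 0.16. Among tRNAs the greatest falls were in mt-Tf (−1.33 ± 0.16) and mt-Tt (−1.30 ± 0.16), both measured from a 6 h level above DMSO (6 h against DMSO 0.88, called by edgeR, and 0.68, not called), and mt-Tl2, mt-Te and mt-Ty gave changes of −0.19 ± 0.62, −0.32 ± 0.27 and −0.46 ± 0.25 that did not pass the test. Leaving out 1 library left 14, 13, 16 and 13 mtDNA genes called, in the order of libraries above. Neighbouring mtDNA genes come from shared precursors, reads over more than 1 gene were counted for each, reads with equal ends had been removed as duplicates, and nuclear copies of mtDNA may share reads, so these genes are not independent of each other.

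Nuclear genes that serve mtDNA and its products did not go down further as a group between 6 h and 24 h. The list of factors that transcribe and copy mtDNA, such as the polymerase Polrmt and the packaging protein Tfam, had 0 of 20 genes called by edgeR or DESeq2 and 0 at an unadjusted p under 0.05, with a median of 0.12. The mitochondrial ribosome list had a median of 0.15, with 62 of 78 genes above 0 and 0 called by DESeq2, and nuclear subunits of oxidative phosphorylation a median of 0.07 with 1 of 82 called, Uqcr10. Single libraries moved these medians: without 6 h replicate 1 that of the ribosome list was 0.035 and without 6 h replicate 2 it was 0.248, that of the nuclear subunits was −0.03 without 24 h replicate 2 and 0.14 without 24 h replicate 1, and that of the factors for mtDNA was 0.04 without 24 h replicate 2. Against DMSO the lists lay lower already at 2 h. The nuclear subunits had medians of −0.23, −0.29 and −0.19 at 2 h, 6 h and 24 h. Those of the ribosome list were −0.25, −0.33 and −0.19, and those of the factors for mtDNA −0.13, −0.23 and −0.14. At 2 h edgeR called 8, 7 and 0 genes of these lists lower, beside 2.29% of all genes. Hspa9, the mitochondrial Hsp70, was at 366 and 394 CPM in DMSO, 445 and 480 at 6 h, against 693 and 601 at 24 h (0.48 ± 0.13), with both 24 h libraries above the others and a DESeq2 adjusted p = 0.133.

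Of the genes of the unfolded protein response of the ER 8 fell, and in 7 of these 8 both 6 h libraries had lain above both DMSO libraries, with 1 (Pdia6) called higher at 6 h against DMSO by edgeR. Both 6 h libraries also lay above both DMSO libraries in 45 of all 91 genes that fell and in 4106 of 18130 tested genes. The 6 h libraries enter the calls, so a high 6 h level is partly built in. Genes of the ER list encode chaperones, folding enzymes, factors for degradation of ER proteins and the regulator Xbp1, and misfolded proteins switch them on through ATF6 and XBP1. Of 16 tested genes of this list 13 had a change below 0, 10 with an unadjusted p under 0.05, 12 did not overlap in that direction, and 8 fell with DESeq2, with a median of −0.83. The medians were 0.37 for 6 h against DMSO and −0.51 for 24 h against DMSO, comparisons that share libraries with each other and with the contrast. The summed level was 1193 and 1333 CPM in DMSO, 1472 and 1703 at 6 h, against 911 and 978 at 24 h.

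Pdia6, a disulfide isomerase of the ER, showed this order most plainly. It was at 102 and 115 CPM in DMSO, 127 and 134 at 2 h, 151 and 175 at 6 h, against 71.8 and 68.4 at 24 h (−1.22 ± 0.13, DESeq2 adjusted p = 2.15e-08), and it was called without any 1 of the 4 libraries. Hspa5 (BiP), the main Hsp70 of the ER, was at 110 and 152 CPM in DMSO, 161 and 181 at 6 h, against 75.0 and 82.7 at 24 h (−1.11 ± 0.18). Hsp90b1, the Hsp90 of the ER, was at 181 and 229, then 259 and 293, then 108 and 144 CPM (−1.13 ± 0.19). In each of these genes both 24 h libraries lay below both DMSO libraries and both 6 h libraries above them. Hyou1 (−0.91 ± 0.16), Manf (−0.91 ± 0.11), Pdia4 (−0.89 ± 0.16), the transcription factor Xbp1 (−0.89 ± 0.14) and the calcium-binding chaperone Calr (−0.82 ± 0.13) completed the 8, of which the naming rule takes the first 4 in size. Herpud1 (0.29 ± 0.20), Sel1l (0.26 ± 0.13), Dnajb9 (0.08 ± 0.23) and Dnajc3 (−0.10 ± 0.17), which serve degradation of ER proteins or act as co-chaperones, did not pass the test. Without 6 h replicate 2 the 8 calls became 2, Pdia6 and Manf, and without the other libraries 8, 6 and 7.

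The 4 ER promoters printed above were chosen because they carry the ER stress response element, and of 6 ER genes that fell and have a known promoter Pdia4 and Xbp1 lack it. It begins 65 bases before the start in Hspa5, 98 in Pdia6, 212 and 107 in Hsp90b1 and 162 in Calr, the last 2 on the opposite strand. Among 11614 tested genes with a known promoter, 23 (0.198%) held it between 250 bases before and 50 after the start, and of 14 list genes 6 did (Calr, Creld2, Dnajc3, Hsp90b1, Hspa5 and Pdia6), of which Creld2 and Dnajc3 did not pass the test. A match in letters does not show that a factor was bound there. Further genes of the early secretory pathway, picked after their values were seen, also fell: Pdia3 (−0.83 ± 0.22), P4hb (−0.78 ± 0.13), the cargo receptor Surf4 (−0.82 ± 0.13) and the coat subunit Sec24d (−0.63 ± 0.12).

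**Figure D2:**
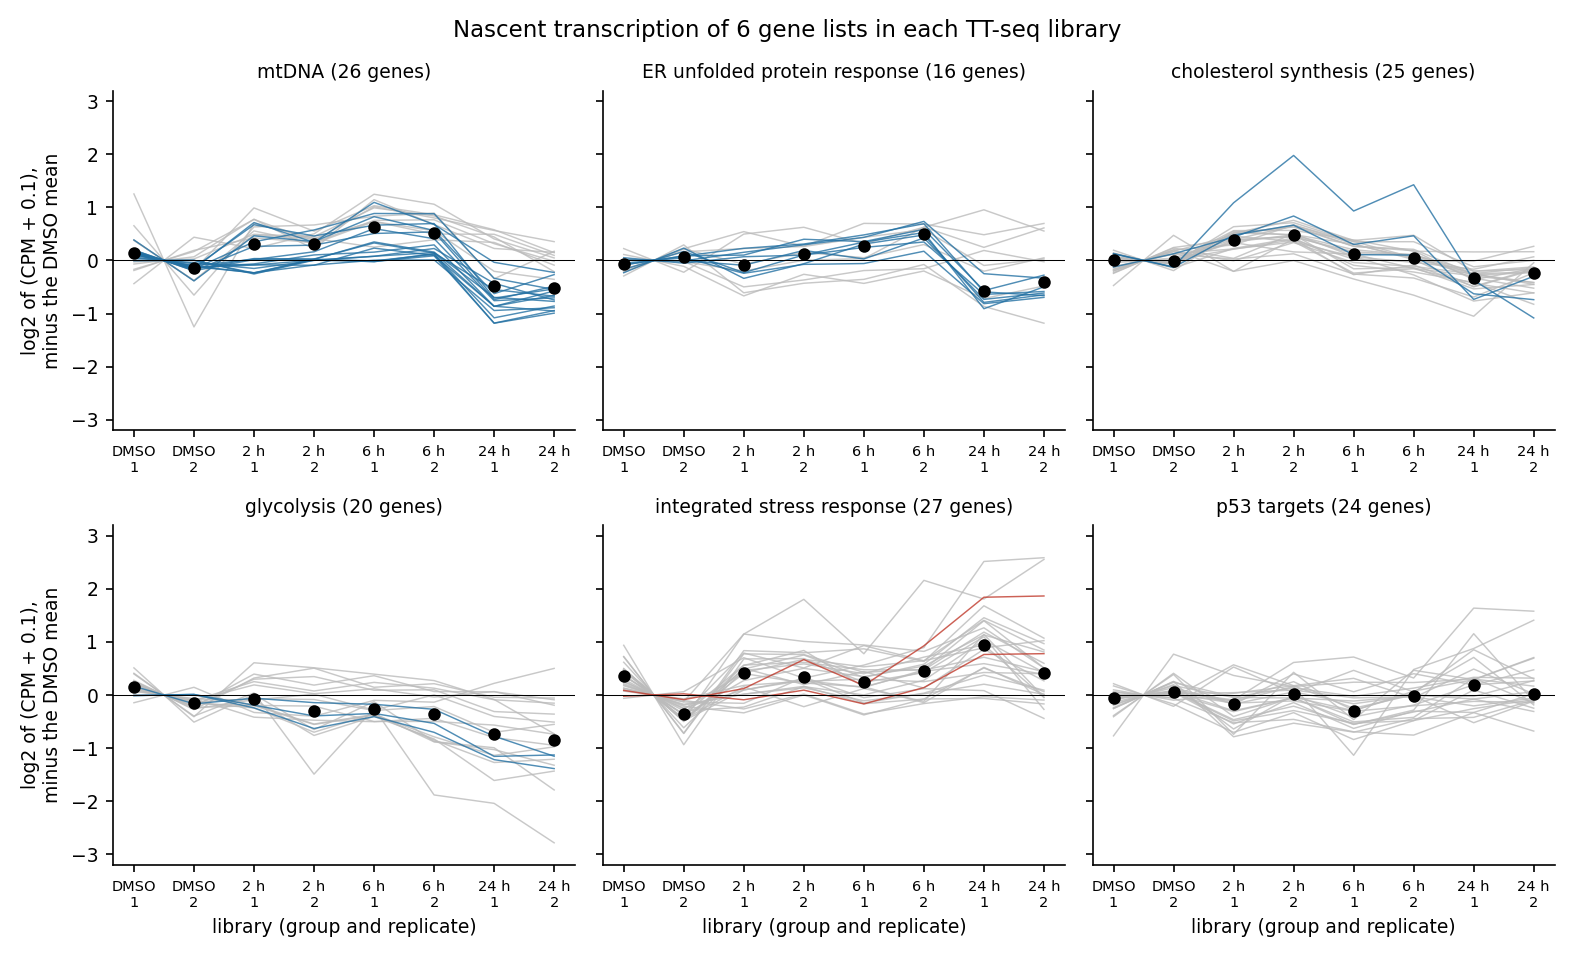
Log2 of CPM + 0.1 minus the gene's DMSO mean (y axis) in each of the 8 TT-seq libraries (x axis) for 6 gene lists, with 1 line a gene (blue, fell with DESeq2; red, rose) and black points for the list median in that library. In the mtDNA and ER panels the medians of both 24 h libraries lie below those of the 6 others, in the cholesterol panel the 2 h libraries are highest, and in the panel of the integrated stress response 24 h replicate 1 lies above 24 h replicate 2.

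Genes of cholesterol synthesis and uptake, which are controlled together by the sterol-sensing factor SREBP2, had a summed level of 2210 and 2294 CPM in DMSO, 2936 and 3178 at 2 h, 2543 and 2386 at 6 h, against 1779 and 1847 at 24 h. Of 25 tested genes 23 had a change below 0, 15 with an unadjusted p under 0.05, 20 did not overlap in that direction and 3 fell with DESeq2, with a median of −0.41. The median for 2 h against DMSO, which shares no library with the contrast, was 0.42, and edgeR called 3 of the 25 higher at 2 h, beside 30 of all 18130 genes (0.165%). Over all 18130 genes the changes in both contrasts had a Pearson correlation of −0.22, so opposite directions were a tendency beyond this list. Fdps, which makes farnesyl diphosphate, went from 69.9 and 69.5 CPM at 6 h to 41.9 and 38.8 at 24 h (−0.79 ± 0.14). Its call was lost without 6 h replicate 1, 6 h replicate 2 or 24 h replicate 2, and with 1 library left out 1, 0, 2 and 1 list genes were called.

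Acly, which was chosen after its values were seen, makes the acetyl-CoA for sterols and fatty acids. It was at 409 and 429 CPM in DMSO, 928 and 1059 at 2 h, 687 and 736 at 6 h, against 354 and 414 at 24 h (−0.89 ± 0.13, DESeq2 adjusted p = 3.85e-05). It was called higher at 2 h and lower from 6 h to 24 h, and was called without any 1 of the 4 libraries. Fads2 (−0.75 ± 0.14), Scd2 (−0.62 ± 0.15) and Aacs (−0.65 ± 0.12), enzymes of fatty acid and acetoacetate use that were also picked afterwards, fell in the same contrast. Of all 30 genes called higher at 2 h, 7 (23.3%) were lower from 6 h to 24 h and 0 higher at an unadjusted p under 0.05 in edgeR. The shares of all genes were 5.09% and 5.93%, and changes in both contrasts were inversely correlated over all genes. The median of the 30 was −0.11, and DESeq2 called 2 of them lower, Acly and Espl1, which encodes separase.

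Most glycolytic genes were lower at 24 h than at 6 h, and 3 passed the test. Of 20 tested genes 19 had a change below 0, 13 with an unadjusted p under 0.05, 18 did not overlap in that direction, and 3 fell with DESeq2, with a median of −0.46. Aldoa counted as 2 of the 20 because its symbol stands on 2 overlapping gene identifiers. Pgk1, the first enzyme of the pathway to make ATP, was at 117 and 119 CPM in DMSO, 99.6 and 76.1 at 2 h, 88.9 and 72.4 at 6 h, against 50.6 and 45.1 at 24 h (−0.75 ± 0.17). The pyruvate kinase Pkm was at 912 and 927, then 804 and 700, then 723 and 635, then 413 and 420 CPM (−0.70 ± 0.13), and the glucose transporter Slc2a1 fell from 275 and 257 CPM at 6 h to 181 and 139 at 24 h (−0.73 ± 0.16). Against DMSO these 3 genes were called lower by edgeR at 24 h and not at 2 h or 6 h. Of all 18130 tested genes edgeR called 771 lower at 24 h, 516 at 6 h and 416 at 2 h. The list median against DMSO was −0.25 at 2 h, −0.35 at 6 h and −0.77 at 24 h, so part of the decrease preceded 6 h. At 6 h Pgk1 stood at −0.55, Pkm at −0.44 and Slc2a1 at −0.23 against DMSO. Pfkfb3, which makes the activator of phosphofructokinase, was the 1 gene above 0 (0.49). With 1 library left out, the call of Pgk1 was lost in every fit, and Pkm and Slc2a1 kept theirs in some fits only. P4ha1, a hypoxia-list gene for a collagen prolyl hydroxylase, fell as well (−0.88 ± 0.15), but it was the only called gene of 13 on that list, whose median was −0.06, and 0.04 without 24 h replicate 1 and also without 24 h replicate 2.

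Genes of the integrated stress response, which follow ATF4 when translation initiation is curbed, lay mostly above 0. Of 27 tested genes 25 did, 6 with an unadjusted p under 0.05, and 14 did not overlap in that direction, but 2 rose with DESeq2 and the median was 0.36. The median was 0.35 for 2 h against DMSO, and the summed level was 3538 and 2455 CPM in DMSO, 3554 and 3688 at 2 h, 3320 and 3373 at 6 h, against 4469 and 3474 at 24 h, so that 24 h replicate 2 lay below DMSO replicate 1 and both 2 h libraries. Atf5, a factor of the same family that is tied to mitochondrial stress, was at 16.9 and 15.0 CPM in DMSO, 17.4 and 25.4 at 2 h, 18.1 and 30.4 at 6 h, against 57.4 and 58.4 at 24 h (1.26 ± 0.26). Cebpg, a partner of ATF4, was at 38.2 and 39.4 in DMSO, 34.5 and 42.7 at 6 h, against 65.9 and 66.6 CPM at 24 h (0.78 ± 0.14). Both stood well above every earlier library at 24 h, while Atf4 itself gave 0.10 ± 0.18. Without 6 h replicate 1 or 24 h replicate 2 neither gene was called, and the list median was 0.13 without 24 h replicate 1 and 0.57 without 24 h replicate 2. The neutral amino acid transporter Slc1a4, picked after its values were seen, rose from 43.9 and 43.8 CPM at 6 h to 99.0 and 71.5 at 24 h (0.96 ± 0.21). Of 24 p53 target genes 20 lay above 0 with a median of 0.32, edgeR and DESeq2 called 0, and 8 had an unadjusted p under 0.05, with the greatest change in Perp, a membrane protein of cell junctions (1.34 ± 0.60).

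**Figure D3:**
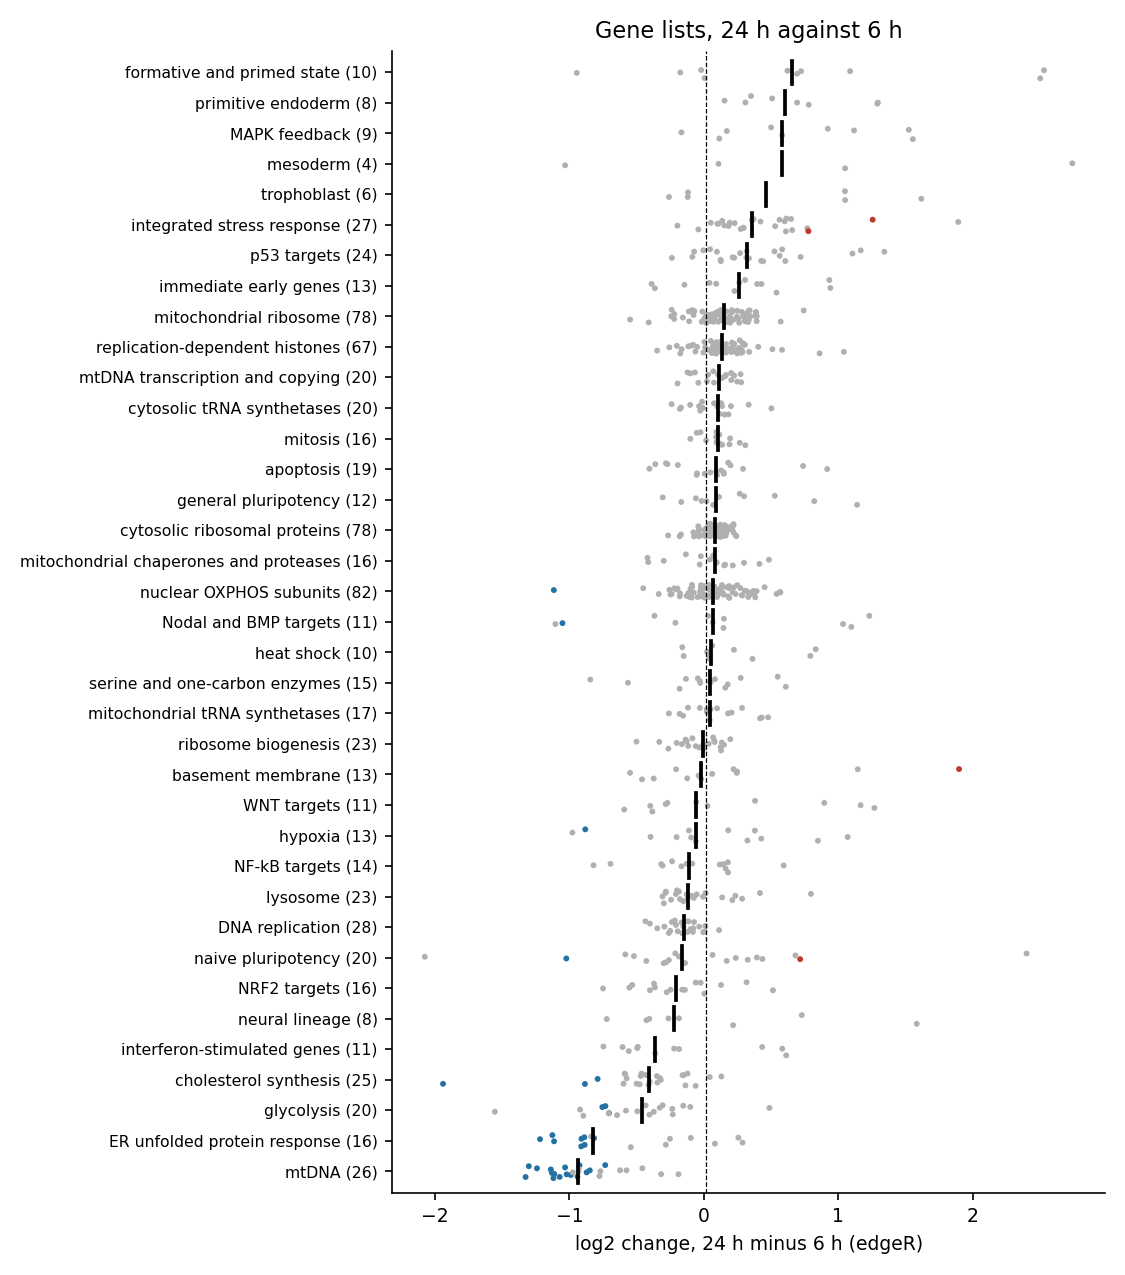
Log2 change in nascent transcription, 24 h minus 6 h (x axis), of each tested gene in the 37 gene lists with at least 4 tested genes (y axis, number tested in brackets), ordered by the list median (black bar). Red and blue points rose and fell with DESeq2, the dashed line is the median of all tested genes at 0.02, and the mtDNA and ER lists lie furthest to the left.

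Across the 39 lists, 29 had no gene called by DESeq2, 1 of them (2-cell-like) with 0 tested genes and the others with medians from −0.36 to 1.27, the highest being that of the fibroblast list with 1 tested gene. Among pluripotency genes of the naive state, Socs3, the feedback inhibitor of LIF signalling, rose from 43.4 and 37.4 CPM at 6 h to 72.2 and 60.8 at 24 h (0.72 ± 0.16), and the factor Spic fell from 96.3 and 122 to 68.3 and 39.6 (−1.02 ± 0.31). The list median was −0.16, and −0.00 without 24 h replicate 1 and −0.01 without 24 h replicate 2. The Nodal antagonist Lefty2 fell from 114 and 86.2 to 57.6 and 39.4 CPM (−1.05 ± 0.30). None of these genes was called in a fit lacking 6 h replicate 1, 6 h replicate 2 or 24 h replicate 2, and Socs3 in no fit that lacked a library. In the primitive endoderm list all 8 tested genes of 14 lay above 0, with a summed level of 21.8 and 22.7 CPM in DMSO, 30.8 and 23.1 at 6 h, against 35.4 and 41.5 at 24 h, and 0 were called by edgeR or DESeq2, with 2 at an unadjusted p under 0.05. The DNA replication list had a median of −0.14, with 25 of 28 genes below 0.

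Trim66, a chromatin reader of the TRIM family, was the 1 leading increase called in every fit that lacked a library. It was at 2.91 and 2.45 CPM in DMSO, 2.66 and 3.37 at 2 h, 3.68 and 4.81 at 6 h, against 18.8 and 17.4 at 24 h (2.09 ± 0.25, DESeq2 adjusted p = 7.53e-06). Both 24 h libraries were close to each other and far above all others. Igfbp7, a secreted protein that binds insulin-like growth factors, was at 5.51 and 4.44 in DMSO, 7.35 and 6.11 at 6 h, against 30.7 and 19.6 CPM at 24 h (1.90 ± 0.34). Dock10, a guanine nucleotide exchange factor for small GTPases, was at 3.95 and 4.98, then 5.32 and 2.77 at 6 h, against 13.2 and 17.8 CPM at 24 h (1.93 ± 0.35). Runx1t1, a transcriptional corepressor, and Adamts17, a secreted metalloprotease, rose by 1.68 ± 0.37 and 1.52 ± 0.29. Igfbp7 was not called without 6 h replicate 2 (DESeq2 adjusted p = 0.136) or without 24 h replicate 1 (0.0635), and Dock10, Runx1t1 and Adamts17 were not called without 6 h replicate 2 or without 24 h replicate 2. Runx1t1 was also lost without 24 h replicate 1 and Adamts17 without 6 h replicate 1.

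For other leading increases the replicates at 24 h were further apart, in the way that they were in DMSO. The heparan sulfate sulfotransferase Hs3st4 was at 2.91 and 8.65 CPM in DMSO, 2.89 and 2.36 at 6 h, against 9.13 and 20.9 at 24 h (2.52 ± 0.54). The matrix protein Sned1 was at 4.37 and 11.9, then 6.88 and 6.44, then 14.3 and 48.7 CPM (2.246 ± 0.58), and the basement membrane collagen Col4a1 at 2.81 and 8.42, then 4.30 and 5.22, then 10.4 and 25.0 (1.90 ± 0.60). In all 3 replicate 2 was the higher one in both DMSO and 24 h, and the DMSO replicates lay on either side of the 6 h libraries in Sned1 and Col4a1 and above them in Hs3st4. B3gnt7 (1.94 ± 0.57), a glycosyltransferase, Zmat4 (1.67 ± 0.46), Adcy2 (1.61 ± 0.46), an adenylyl cyclase, and Arfgef3 (1.57 ± 0.40) had the same order. Without 24 h replicate 2 only Trim66 and Igfbp7 of the 12 leading increases were called, and without 6 h replicate 2 only Trim66.

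**Figure D4:**
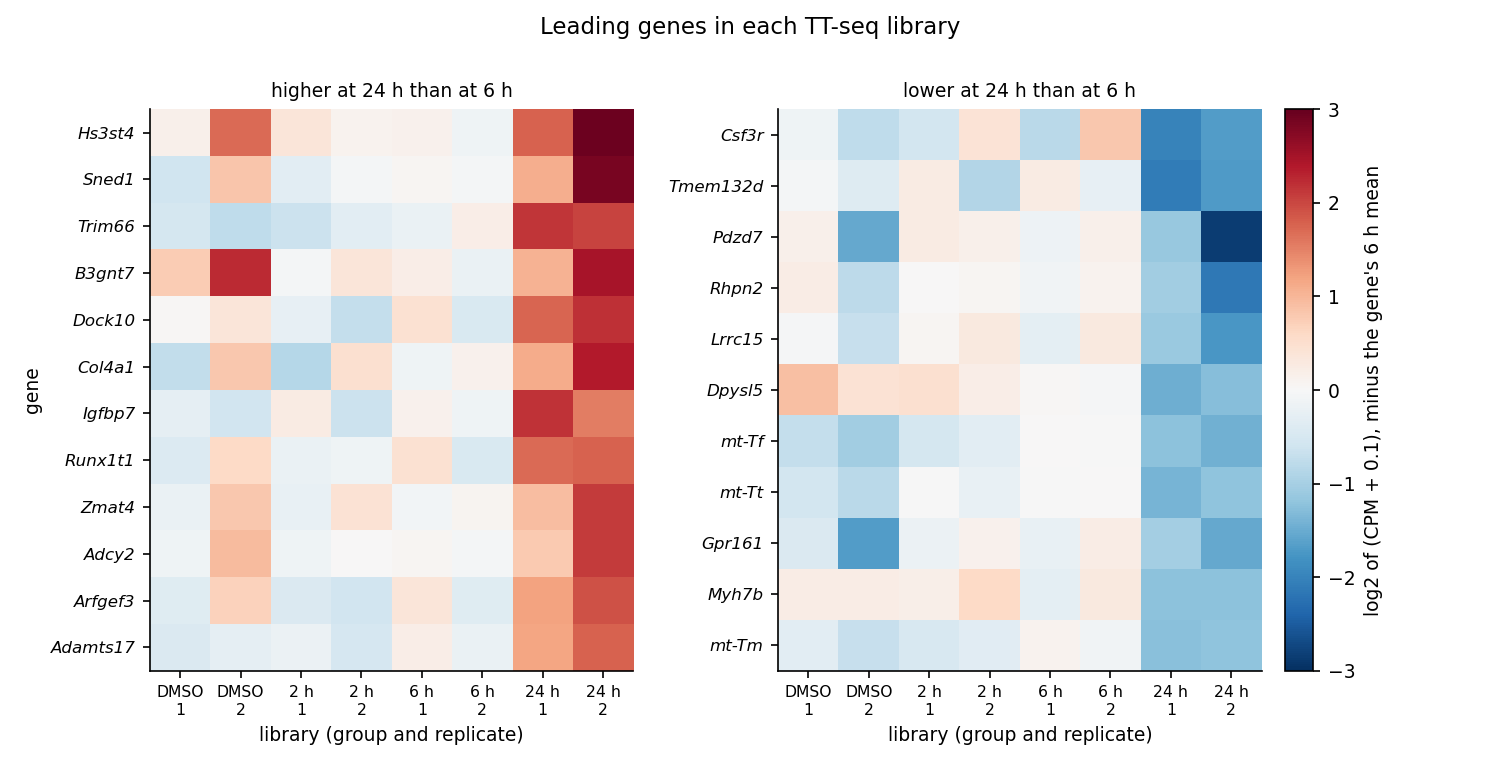
Log2 of CPM + 0.1 minus the gene's 6 h mean (colour scale, −3 to 3) for the 12 leading genes that rose and 11 that fell (y axis) in each of the 8 TT-seq libraries (x axis). Trim66 and Igfbp7 are high in both 24 h libraries and at no other time, while Hs3st4, Sned1, B3gnt7 and Col4a1 are also raised in DMSO replicate 2.

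The genes that rose were long and rarely bound by ZFP143. Their median gene length was 73046.5 bp, against 19627.5 bp for all tested genes, 28 of 60 (46.7%) were longer than 100 kb, against 12.9%, and their median mean count was 205 reads, against 174. A ZFP143 peak lay at a promoter in 3 of 59 protein-coding or long non-coding genes (5.08%), against 13.8% of all tested ones. At 2 h, when edgeR called 30 genes higher (0.165%) and 416 lower (2.29%), it called none of the 60, while DESeq2 called 2 of them lower, B3gnt7 and Chn2 (the latter named after its values were seen), and 0 higher.

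Of the 12 leading decreases 3 were mtDNA tRNAs. Tmem132d, a neural membrane protein, was at 67.5 and 53.5 CPM in DMSO, 83.2 and 38.1 at 2 h, 83.6 and 59.1 at 6 h, against 16.3 and 21.5 at 24 h (−1.91 ± 0.35, DESeq2 adjusted p = 1.06e-06). Dpysl5, a collapsin response mediator protein with a ZFP143 peak at its promoter, was at 77.5 and 55.4, then 57.7 and 47.5, then 41.9 and 40.4, then 14.8 and 17.0 CPM (−1.37 ± 0.19). Both 24 h libraries of these genes were the lowest 2 of the 8, and both calls held without any 1 library. Myh7b, a myosin heavy chain, went from 35.6 and 52.7 CPM at 6 h to 18.4 and 18.5 at 24 h (−1.26 ± 0.21) and was called in all but the fit without 6 h replicate 2. The cytokine receptor Csf3r, at 6.88 and 21.6 CPM at 6 h, against 2.94 and 3.76 at 24 h (−2.07 ± 0.56), Pdzd7 (−1.82 ± 0.60), Rhpn2 (−1.51 ± 0.38), Lrrc15 (−1.44 ± 0.30) and Gpr161 (−1.28 ± 0.37) were not called without 6 h replicate 2 or without 24 h replicate 2. Of these genes Lrrc15 alone was called in both remaining fits, since Pdzd7, Rhpn2 and Gpr161 were also lost without 6 h replicate 1 and Csf3r without 24 h replicate 1. In Pdzd7, Rhpn2, Lrrc15 and Gpr161 DMSO replicate 2 was also below DMSO replicate 1, for example at 111 and 55.5 CPM in Rhpn2. Gss, the last enzyme of glutathione synthesis, was named after its values were seen and fell from 99.0 and 107 to 46.9 and 57.8 CPM (−0.97 ± 0.13), with a call in every fit.

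A few genes that had lost transcription early went on falling after 6 h. Of the 416 genes called lower at 2 h, 38 (9.13%) were lower and 26 (6.25%) higher from 6 h to 24 h at an unadjusted p under 0.05, shares to be read beside 5.09% and 5.93% of all genes, and their median change was −0.00. DESeq2 called 5 of them lower and 0 higher, and all 5 had a ZFP143 peak at the promoter, with 1 peak shared by Uqcr10 and Zmat5. Mpi, the mannose phosphate isomerase that feeds protein glycosylation, was at 27.4 and 20.7 CPM in DMSO, 2.34 and 1.92 at 2 h, 2.35 and 1.39 at 6 h, against 0.393 and 0.226 at 24 h (−2.60 ± 0.48), so that few reads stand behind its last step. St3gal2, a sialyltransferase, was at 117 and 108, then 60.8 and 54.8, then 52.6 and 54.3, then 28.1 and 21.96 CPM (−1.10 ± 0.15) and was called without any 1 library. Pdia5, another ER disulfide isomerase, was at 239 and 219, then 68.1 and 49.98, then 64.1 and 55.4, then 35.0 and 30.8 CPM (−0.86 ± 0.17). In each, 2 h and 6 h were alike and 24 h was lower again.

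Uqcr10, a subunit of complex III, and Zmat5, a protein of the minor spliceosome, lie head to head on opposite strands. They share 1 ZFP143 peak, and their promoters overlap, so that 1 ACTACA match there counts for both genes. Uqcr10 was at 41.9 and 38.4 CPM in DMSO, 10.7 and 12.03 at 2 h, 8.52 and 7.5 at 6 h, against 4.12 and 3.31 at 24 h (−1.12 ± 0.21), and Zmat5 at 60.1 and 53.1, then 15.1 and 14.7, then 13.2 and 13.4, then 7.85 and 4.21 CPM (−1.16 ± 0.26). Of the 5 genes only St3gal2 was called in all 4 fits with a library left out, Uqcr10 was called in none, and Mpi was called only without 6 h replicate 2 and Zmat5 and Pdia5 only without 24 h replicate 1. The centre of the ZFP143 peak lay 3.5 bp from a transcription start in Mpi, 164 bp in Uqcr10 and 19 bp in Pdia5, with an enrichment over input of 49.6, 102 and 118. ACTACA stood in all 4 of these genes' promoters that are in the table, in 11.8% of all tested promoters, in 54.7% of 300 promoters of genes lower at 2 h and in 16 of 55 (29.1%) of those that fell by DESeq2 from 6 h to 24 h. Of all genes that fell, 22 of 80 protein-coding or long non-coding ones (27.5%) had a peak at a promoter, against 13.8% of all tested genes, and of the 84 genes of any class that fell without an edgeR call at 2 h 17 had one. Among these 17 are Dpysl5, Manf, Snd1 and Hsp90b1, the last with a peak centred 514.5 bp from a start.

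Steady-state RNA, measured in other libraries, moved with nascent transcription for part of these genes. Of the 60 that rose, RNA-seq called 24 of 51 tested genes higher and 0 lower after 24 h of depletion against DMSO, where 2.32% of all genes were called higher and 3.41% lower. In the second RNA-seq experiment, which had DMSO cells of the same 24 h, 24 of 55 were higher and 0 lower, beside 2.74% and 3.66% of all genes. From 24 h to 48 h, 15 of 51 were higher at 48 h and 0 lower, beside 2.32% and 0.912%. Trim66 gave 4.25 and 3.68 (log2) in the first and second experiment, Igfbp7 2.16 and 2.18, and Atf5 1.83 and 1.29, all called, whereas B3gnt7 (0.66 and 0.40) and Adcy2 (0.88 and 1.01) were not called in either. In the list of the integrated stress response 10 of 26 tested genes were higher in RNA in the first experiment and 12 in the second.

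Of the 91 that fell, 21 of 79 were lower and 2 higher (among them Pan2) in RNA after 24 h against DMSO, 18 of 80 lower and 0 higher with the matched DMSO, and 10 of 79 lower and 0 higher from 24 h to 48 h. The greatest was Mpi, at −5.81 and −6.51 in both experiments, followed by Zmat5 at −3.73 and −3.49. Dpysl5 was at −2.02 and −2.03, and all 3 were called in both. No ER list gene was called in RNA in 16 tested, in either experiment or direction, by edgeR's test against a fold of 1.5. Hspa5 was at 0.01 and −0.31 and Pdia6 at 0.02 and −0.14. Of 9 mtDNA genes tested in RNA, mt-Nd5 (−0.88) and mt-Cytb (−0.81) were called lower in the time course and 0 with the matched DMSO, where they gave −0.53 and −0.49. In glycolysis 8 of 20 genes were lower in the first experiment and 6 of 20 in the second, Slc2a1 at −0.92 and −1.02.

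**Figure D5:**
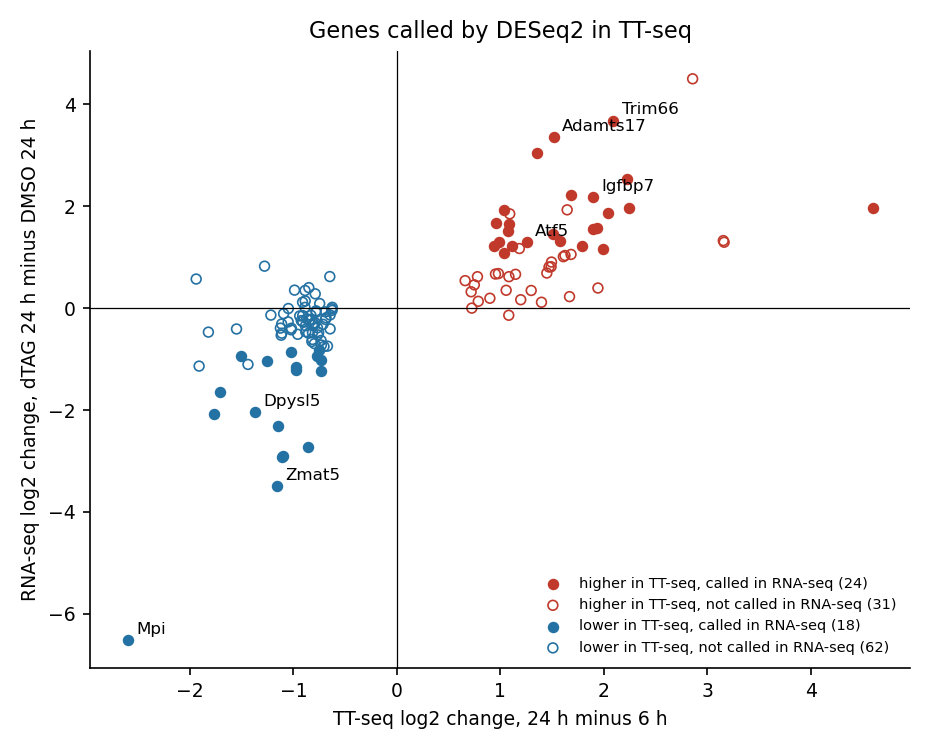
RNA-seq log2 change after 24 h of dTAG against DMSO of the same 24 h (y axis) against the TT-seq log2 change, 24 h minus 6 h (x axis), for genes called by DESeq2 in TT-seq, with filled points for genes called in RNA-seq. The filled red points (24 of 55) lie in the upper right and the filled blue points (18 of 80) in the lower left.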

How the data were processed

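TT-seq raw counts per gene were deposited by the authors, who mapped reads with STAR to mm10 with GENCODE vM25, kept unique alignments with SAMtools, removed duplicates with Picard, split reads by strand and counted them with HTSeq, with reads over several genes counted for each. RNA-seq counts were deposited by the authors from STAR. ZFP143 peaks carry the fold enrichment over input, as deposited by the authors. No spike-in scaling was used here, so values are relative to each library. The name of the DMSO columns in the TT-seq table gives 0 h, and they were matched to the DMSO samples because no other TT-seq group remained.

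Counts were scaled by TMM and fitted over all 8 TT-seq libraries in R 4.3.3, using edgeR 4.0.16 (which loads limma 3.58.1; quasi-likelihood test, adjusted p under 0.05 after Benjamini and Hochberg, absolute log2 change above 0.5). The SE of a log2 change is its size divided by the square root of the quasi-likelihood F. DESeq2 1.42.0 used the same libraries and thresholds, and adjusted p-values it gave as NA stayed NA. RNA-seq used edgeR's glmTreat against a fold of 1.5 at an adjusted p under 0.01. Per-library values are CPM. Replicates are labelled as separate samples of a group. The spread that p-values rest on was estimated from the replicates of all groups in a fit, with information shared across genes. Both tests were tested on simulated data. Symbols come from GENCODE vM21, which gives none for 40 tested genes, and 3 listed symbols stand on 2 gene identifiers. A gene was bound where a peak overlapped 2000 bp before to 1000 bp after a transcription start with its centre within 2000 bp. Groups came from the labels, 0 columns lacked a sample, and CTCF peaks, 4C, Hi-C and signal tracks were not used here.

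The genes, gene lists and tests were chosen with earlier results of these data known. Leading genes are the 12 greatest increases and decreases with a symbol, a mean count of at least 100 and no overlap between 6 h and 24 h libraries. The other named genes are Zfp143, mtDNA genes, up to 4 called genes per list and direction or else the gene with the greatest change, and genes called lower at 2 h and again. As edgeR called 0 genes, the rule was applied to DESeq2 calls, and genes outside it are marked in the text. A few genes the rule takes are not reported here. Alternatives changed scaling, filter, tool, libraries, replicate block and thresholds.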

Additional observations from a re-analysis of the deposited data

How the results depend on the processing

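The number of calls depended on the tool, the filter and the block. For genes higher and lower at 24 h than at 6 h, edgeR called 0 and 0 with the filter as reported, and this held with the size factors of DESeq2, with library size alone, with more than 10 counts in 4 of 8 libraries, with the 6 h and 24 h libraries alone, with no minimum change, at an adjusted p under 0.01 and with any 1 library left out (0 to 0). With no filter on low counts it called 494 and 251, of which all 151 DESeq2 calls were part, and DESeq2 called 60 and 91. The cause was not tested. The DESeq2 counts ranged from 4 to 78 and from 25 to 100 with 1 library left out, fits that were added after seeing the data. Library size alone moved the median of all genes from 0.02 to 0.10.

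The labels tie replicates of different groups together by a number alone, and they neither give nor exclude a shared batch. Correlations of the differences between replicates across 18130 genes were all above 0, between 0.19 and 0.62. The highest was between DMSO and 24 h, followed by 0.54 between 2 h and 6 h. Whether replicates shared a batch was not tested. With a replicate block edgeR called 97 higher and 125 lower, with the block in the 6 h and 24 h libraries alone 76 and 108, and DESeq2 with the block, added after seeing the data, 161 and 209. For 2 h against DMSO the block gave 89 higher and 649 lower, DESeq2 51 higher, and leaving out 1 library 10 to 35 higher and 102 to 293 lower.

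In RNA, the thresholds of TT-seq raised the counts of genes that rose from 24 to 42 at 24 h, from 15 to 38 from 24 h to 48 h and from 24 to 40 with the matched DMSO, where DESeq2 gave 14 and 9 for the first and second. With 1 library left out they were 19 to 22, 12 to 14 and 18 to 21. For genes that fell, the lower counts became 40, 32 and 30 and the higher ones 2 from 24 h to 48 h and 3 with the matched DMSO, and DESeq2 gave 6 lower from 24 h to 48 h and 1 higher at 24 h. With 1 library left out the higher count at 24 h was 1 to 2. Of 2036 values of 97 named genes under the alternatives 2022 kept their sign, and of 798 list medians 758 did. With 2 libraries a group, 1 library can decide a call, and low counts such as those of Mpi at 24 h limit precision.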
